A study of Apostichopus japonicus with 12 samples.

Results

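Adjacent gene models of the sea cucumber Apostichopus japonicus, BSL78_15659 and BSL78_15660, are both described as monocarboxylate transporter 6, and their RNA was followed in the intestine of animals exposed to warm water. They are 2 of the 30221 gene models in the deposited table. They were picked by name because earlier results on these same libraries had shown their levels across the 4 groups, so the levels and differences given for them are a description and carry no test. RNA of 12 animals of around 100 g was sequenced, 3 in each group and each animal on its own: 30 °C for 6 h, 26 °C for 48 h, 26 °C for 6 h, and controls kept at 18 °C. The water of the heated animals was warmed from 18 °C by 2 °C per hour, and the hours were counted from the moment the set temperature was reached. The same 3 controls, whose labels give no sampling time, stood against all heated groups, and no strain, sex or age was labelled.

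Monocarboxylate transporters of the SLC16 family belong to the major facilitator superfamily of membrane carriers. The best known mammalian members carry lactate, pyruvate and ketone bodies across the plasma membrane together with a proton, and several of them reach the surface only with the help of basigin or embigin. Monocarboxylate transporter 6 (SLC16A5 in human) is a less studied member, found in human and rodent kidney and intestine, which carries the diuretic bumetanide and some other drugs and is not known as a lactate carrier. Its role in echinoderms is not described in the files. A separate family, the sodium-coupled monocarboxylate transporters, takes up lactate and short-chain fatty acids with sodium in the mammalian gut.

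BSL78_15659, putative monocarboxylate transporter 6 isoform X1, lies on the plus strand of scaffold MRZV01000578.1 from 509528 to 514457, and its coding length is 1158 bases, or 386 codons. The file assigns it the family MFS_1, the major facilitator superfamily. BSL78_15660, isoform X2 of the same name, follows on the same strand from 514691 to 515698, has a coding length of 465 bases (155 codons) and no assigned domain. They are separated by 233 bases and are the 25th and 26th of 36 models on the scaffold, and together they span 6171 bases. Another model of the name, BSL78_11148 (isoform X1, scaffold MRZV01000349.1, 148620 to 154055, plus strand), has 1497 coding bases (499 codons) and the same family, MFS_1. The isoform names are those of the file, which gives the models different positions. The positions are on the file's own scaffolds, and how reads that match more than one of these models were counted is not given in the sources used here. BSL78_15660 is shorter than the median coding length of all models, 924 bases, so it collects fewer reads at a given level.

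Levels are in FPKM, fragments per kilobase of coding length after the authors' scaling between libraries, which equalled median-of-ratios factors. Whole reads could be recovered from the deposited FPKM values, and all intervals on reads are exact at 95% and cover counting error only. Between 1788303 and 3956056 reads on genes were recovered per library. At a common depth of 1700000 reads, 12476 to 14727 genes would have had a read in the 30 °C libraries, 15943 to 19025 in the 48 h libraries, 12678 to 16682 in the 26 °C 6 h libraries and 15131 to 18449 in controls. The labelled tissue was compared with gut epithelium markers matched by words in the descriptions, 61 models, of which 3 had no read and 46 were tested. The match also took in supervillins, inter-alpha-trypsin inhibitor heavy chains and a Kunitz-type trypsin inhibitor, which share only a word with the markers. The summed level of the 61 models was 1028 to 7169 FPKM at 30 °C, 973 to 1811 FPKM at 48 h, 937 to 2495 FPKM at 26 °C for 6 h and 992 to 2441 FPKM in controls. Among them villin (BSL78_02148), a protein of the brush border, averaged 321 FPKM over all libraries and a trypsin-like protease (BSL78_00549) 907 FPKM. These were the highest means of the list, in which other models were at or near 0. Aminopeptidase N model BSL78_06077 averaged 0.0299 FPKM and sucrase-isomaltase model BSL78_01418 averaged 0 FPKM. Of the 46 tested gut models 1, alpha-amylase 4N (BSL78_20389), was called higher at 30 °C than in controls (log2 change 5.12, SE 0.79, adjusted p = 0.00742, limma with Benjamini-Hochberg adjustment). Of all tested genes 0.651% were called in either direction there. The same model was called at 30 °C against 26 °C for 6 h (log2 change 4.69, adjusted p = 0.0351 by limma), where 0.246% of all tested genes were called. Muscle markers (51 models) summed to 1271 to 2732 FPKM at 30 °C, 1339 to 1737 FPKM at 48 h, 803 to 933 FPKM at 26 °C for 6 h and 738 to 1455 FPKM in controls. Neuron markers (53 models) summed to 244 to 662 FPKM at 30 °C, 228 to 334 FPKM at 48 h, 209 to 345 FPKM at 26 °C for 6 h and 228 to 273 FPKM in controls, and germ line markers (5 models) to at most 46.2 FPKM in any library. Major yolk proteins (5 models) were listed for coelomic fluid by name only, and whether their RNA was made in the intestine itself was not tested. They took 8.78% to 20.2% of the reads on genes at 30 °C, 5.17% to 17.3% at 48 h, 17.0% to 29.99% at 26 °C for 6 h and 10.2% to 29.5% in controls. FPKM summed over all genes averaged 2408770 at 30 °C and 1035780 in controls, so the marker sums are not shares of a library. Of the reads on genes, muscle markers took 0.0814% to 0.273% at 30 °C and 0.236% to 0.296% in controls. Gut markers took 0.0499% to 0.354% and 0.103% to 0.279% in these groups, and neuron markers 0.0123% to 0.0413% and 0.0254% to 0.0585%. The muscle and neuron lists were matched by words too. They took in a tropomyosin-related kinase (muscle) and YKT6 and choline transporter-like models (neurons), which stayed in the sums and shares. The part of these markers in the levels of the pair was not tested.

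BSL78_15659 was read in every 48 h and control animal, was close to 0 after 6 h at 26 °C, and had no read after 6 h at 30 °C. The 30 °C animals had 0 reads each. The 48 h animals had 10.4 FPKM (23 reads), 6.80 FPKM (40 reads) and 7.12 FPKM (47 reads). The 26 °C 6 h animals had 0 FPKM (0 reads), 1.005 FPKM (3 reads) and 1.11 FPKM (5 reads), and controls had 11.7 FPKM (35 reads), 17.9 FPKM (75 reads) and 11.7 FPKM (103 reads). The 4 groups thus stood, from high to low, in the order control, 48 h, 26 °C 6 h and 30 °C, with every 48 h animal below every control and above every animal of either 6 h group. The 30 °C and the 26 °C 6 h groups overlapped at 0. Values below all controls without overlap were found in 7.98% of the 18729 tested genes at 30 °C, 4.85% at 48 h and 7.15% at 26 °C for 6 h, and values higher without overlap at 48 h than at 6 h in 7.87%. Since these contrasts chose the members, nothing is read from the shares. A count of 0 at 30 °C allows up to 3.69 reads by the exact interval, or 1.79, 1.47 and 2.19 FPKM in the 3 animals. The floor of 3 reads used for folds below stands at 1.45, 1.20 and 1.78 FPKM there. Pooled over the animals, 0 reads at 30 °C stood against 8 reads at 26 °C for 6 h, and the exact 95% interval of the scaled ratio ran from 0 to 0.905. In a bulk sample, fewer cells of a type and less RNA per cell cannot be told apart.

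The means of BSL78_15659 were 0 FPKM at 30 °C, 8.12 ± 2.02 FPKM at 48 h, 0.704 ± 0.611 FPKM at 26 °C for 6 h and 13.8 ± 3.57 FPKM in controls (SD, n = 3 each). At 30 °C it was 9.33-fold lower than in controls, with the floor of 3 reads put in each 30 °C library. At 26 °C for 6 h the pooled reads, corrected for library scaling, were 0.0621 of the control level (8 against 213 reads, exact 95% interval 0.0265 to 0.125). At 48 h they were 0.562 of the control level (110 against 213 reads, 0.443 to 0.711). The 48 h animals stood 9.06 times above the 26 °C 6 h animals by the same measure (110 against 8 reads, 4.44 to 21.5). On log2(FPKM + 1), which understates the change of low genes, the fitted differences were -3.86 at 30 °C, -0.69 at 48 h and -3.17 at 26 °C for 6 h against control (SE 0.50 each). They were -0.69 between 30 °C and 26 °C at 6 h, and 2.47 between 48 h and 6 h at 26 °C. The separation of 48 h from control depended on the scaling. Scaled to equal totals of reads on genes, as reads per 1000000, the 48 h animals had 12.9, 13.7 and 17.9, against 11.3, 28.1 and 27.7 in controls, and the groups then overlapped.

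BSL78_15660, the shorter model, showed the same order of groups at higher FPKM, but with 1 animal of each 6 h group apart from the others. The 30 °C animals had 0, 0 and 4.43 FPKM (0, 0 and 3 reads). The 48 h animals had 29.4, 29.2 and 16.6 FPKM (26, 69 and 44 reads). The 26 °C 6 h animals had 16.1, 2.503 and 1.65 FPKM (14, 3 and 3 reads), against 25.9, 38.6 and 25.1 FPKM in controls (31, 65 and 89 reads). Animal 1 of the 26 °C 6 h group was nearly at the level of the lowest 48 h animal, while the other two were close to the floor of 3 reads. The 48 h and control animals overlapped, as did the 30 °C and 26 °C 6 h animals.

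The means of BSL78_15660 were 1.48 ± 2.56 FPKM at 30 °C, 25.1 ± 7.34 FPKM at 48 h, 6.75 ± 8.10 FPKM at 26 °C for 6 h and 29.9 ± 7.58 FPKM in controls (SD, n = 3 each). Pooled reads at 30 °C were 0.0414 of the control level (3 against 185 reads, exact 95% interval 0.00847 to 0.123). They were 0.818 of it at 48 h (139 against 185 reads, 0.652 to 1.03) and 0.179 of it at 26 °C for 6 h (20 against 185 reads, 0.107 to 0.284). The fitted log2 differences from control were -4.11 at 30 °C, -0.26 at 48 h and -2.48 at 26 °C for 6 h (SE 0.79 each), and 48 h stood above 6 h at 26 °C by 2.22. Pooled reads were 0.232 of the 26 °C 6 h level at 30 °C (3 against 20 reads, 0.0441 to 0.782), and 4.58 times that level at 48 h (139 against 20 reads, 2.85 to 7.73). Of the 20 reads at 26 °C for 6 h, 14 came from animal 1. Without animal 1 of the 26 °C 6 h group, the difference of that group from control was -3.31. The difference between 30 °C and 26 °C at 6 h then went from -1.62 to -0.79, and that between 48 h and 6 h at 26 °C from 2.22 to 3.05.

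**Figure D1:**
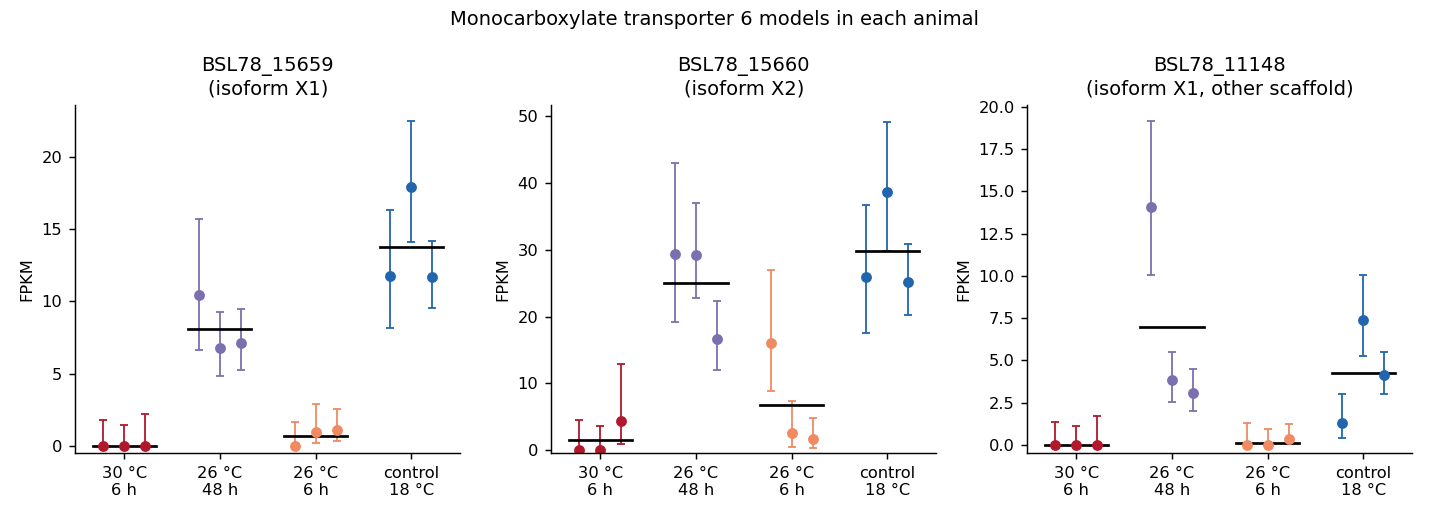
FPKM of the pair and of the third monocarboxylate transporter 6 model in each animal. Points are animals, vertical bars exact 95% Poisson intervals of the recovered reads, and black lines group means of 3 animals; each panel has its own linear axis. The control and 48 h animals had reads in all 3 models, and the 30 °C animals had none except 3 reads of BSL78_15660 in animal 3.

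Since reads may be split between neighbouring models of the same name, both were also summed over their joint coding length of 1623 bases. The pair then had 0, 0 and 1.27 FPKM at 30 °C, 15.9, 13.2 and 9.83 FPKM at 48 h, and 4.61, 1.43 and 1.26 FPKM at 26 °C for 6 h, against 15.8, 23.8 and 15.5 FPKM in controls. Every animal of either 6 h group lay below every 48 h and every control animal, and the 48 h and control animals overlapped. Pooled reads were 0.0193 of the control level at 30 °C (3 against 398 reads, exact 95% interval 0.00395 to 0.0567), 0.681 at 48 h (249 against 398 reads, 0.579 to 0.800) and 0.116 at 26 °C for 6 h (28 against 398 reads, 0.0763 to 0.171). Against 26 °C at 6 h, the pair stood at 0.166 at 30 °C (3 against 28 reads, 0.0322 to 0.536), with overlapping animals, and at 5.86 at 48 h (249 against 28 reads, 3.96 to 8.997).

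A value of 0 in every 30 °C library with reads in every control library, as BSL78_15659 had, was found in 291 tested genes, or 1.55%. Since this contrast chose the members, nothing is read from the share. By group mean, the fewest genes would have had a read at a common depth at 30 °C and at 26 °C for 6 h (13925 and 14680 genes, against 17788 genes at 48 h and 16915 genes in controls), although animal 3 of the 26 °C 6 h group, at 16682 genes, was above control animal 1, at 15131. The part of this in the members' zeros was not tested.

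The reads of the pair were shared between its models in nearly the same proportion in all controls by point estimate. The exact binomial 95% intervals of the single controls were far wider: 34.6% to 59.7%, 38.0% to 55.0% and 39.1% to 53.7%. BSL78_15660 took 47.0%, 46.4% and 46.4% of the pair's reads in controls (46.6% ± 0.336, SD, n = 3), and 53.1%, 63.3% and 48.4% at 48 h (54.9% ± 7.64). Pooled, the share was 55.8% at 48 h (139 of 249 reads, exact binomial 95% interval 49.4% to 62.1%) and 46.5% in controls (185 of 398 reads, 41.5% to 51.5%). These intervals overlapped, and so did the intervals of single 48 h and control animals. By point estimate every 48 h animal had a higher share than every control, at the closest 48.4% of 91 reads against 47.0% of 66 reads. The difference was not tested. Animal 1 of the 26 °C 6 h group stood apart, with all 14 of its reads on BSL78_15660 (76.8% to 100%), whereas animals 2 and 3 had 50% of 6 reads and 37.5% of 8 reads. At 30 °C all 3 reads lay on BSL78_15660, which allows a share from 29.2% to 100%. Per length, BSL78_15660 stood at 2.82, 4.30 and 2.33 times the FPKM of BSL78_15659 at 48 h and at 2.21, 2.16 and 2.15 times in controls.

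**Figure D2:**
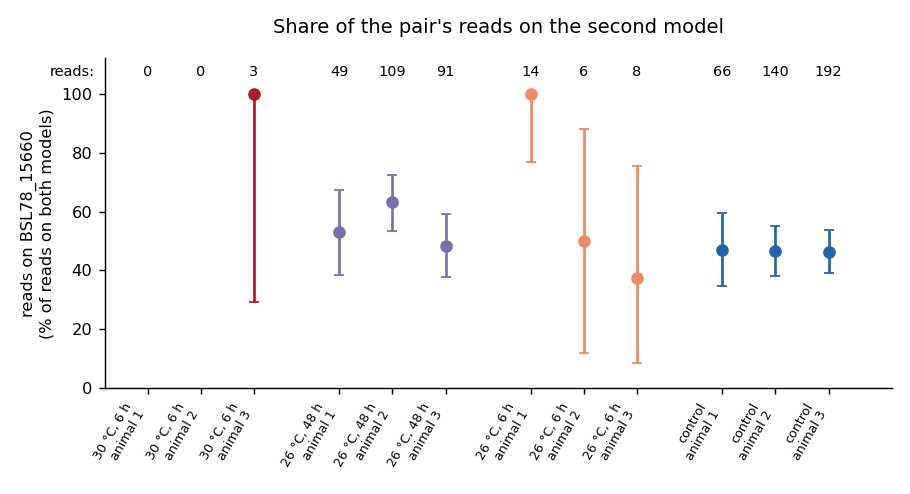
Share of the pair's reads that lay on BSL78_15660, in percent, for each animal, with exact binomial 95% intervals; the number of reads of the pair stands above each animal. The 3 controls lie between 46.4% and 47.0%, and the intervals widen where the pair had few reads.

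BSL78_11148, the third model of the name, was not among those chosen, and its values could be tested. It had no read in any 30 °C animal. It had 14.1, 3.82 and 3.05 FPKM at 48 h (40, 29 and 26 reads), and 0, 0 and 0.342 FPKM at 26 °C for 6 h (0, 0 and 2 reads). Controls had 1.30, 7.38 and 4.12 FPKM (5, 40 and 47 reads). Both 6 h groups thus lay below all 48 h and control animals, and the 48 h animals overlapped with controls. Values below all controls were found in 7.98% of all tested genes at 30 °C and 7.15% at 26 °C for 6 h. With the floor of 3 reads put in each 30 °C library, the mean of BSL78_11148 was 3.74-fold lower there than in controls. Control animal 1, at 1.30 FPKM (5 reads), lay below that floor in 30 °C animal 3, 1.38 FPKM, so the fold does not hold for every animal. The log2 change of -2.21 (SE 0.63) at 30 °C did not pass the test across all genes (adjusted p = 0.194, limma with Benjamini-Hochberg adjustment). Over the alternative settings the adjusted p ran from 0.0374 to 0.440, and it passed in 2 of 19 settings, with a pseudocount of 0.1 FPKM and with voom on the recovered reads. At 26 °C for 6 h the change was -2.07 (adjusted p = 0.380 by limma), at 48 h it was 0.52 (adjusted p = 1), and from 6 h to 48 h at 26 °C it was 2.59 (adjusted p = 0.387). None of these passed, and reads matching several models of the name could enter its count too.

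Among the 73 transporter models described as monocarboxylate or sodium-coupled monocarboxylate transporters, BSL78_15660 had the highest mean FPKM in controls and BSL78_15659 the 5th highest, and BSL78_11148 ranked 14th. At 48 h BSL78_15660 ranked 2nd and BSL78_15659 4th. At 26 °C for 6 h they ranked 8th and 31st, and at 30 °C BSL78_15660 ranked 20th. The pair made up 3.19% ± 5.52 of the summed FPKM of SLC16-type models at 30 °C, 29.9% ± 15.1 at 48 h, 8.45% ± 10.5 at 26 °C for 6 h and 30.2% ± 10.8 in controls (SD, n = 3 each). The other SLC16-type models summed to 76.5 ± 43.0 FPKM at 30 °C, 95.6 ± 68.5 FPKM at 48 h, 107 ± 40.04 FPKM at 26 °C for 6 h and 104 ± 24.4 FPKM in controls. Set among all tested genes, 82.98% had a lower control mean than BSL78_15659 and 91.7% a lower one than BSL78_15660.

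Genes of monocarboxylate transport and use were then tested as a list that leaves out the pair: 110 models, 17 of them without a read, and 65 tested. No member passed limma's test in any of the 5 comparisons, whereas 0.651% of all tested genes were called in either direction at 30 °C, 0% at 48 h and 0.0641% at 26 °C for 6 h, 0.246% between 30 °C and 26 °C at 6 h, and 0.0107% between 48 h and 6 h at 26 °C. With no adjustment, a p under 0.05 was found for 8 of the 65 members at 30 °C (12.3%, against 10.4% of all tested genes), 2 at 48 h (3.08% against 4.55%) and 4 at 26 °C for 6 h (6.15% against 8.06%). It was found for 7 between the temperatures at 6 h (10.8% against 11.7%) and 4 between the times at 26 °C (6.15% against 7.01%), so these shares were close to the background. With voom on the recovered reads 2 members were called at 30 °C, BSL78_11148 and BSL78_12781, where 154 of all tested genes (0.822%) were called. The median log2 change of the tested members was -0.12 at 30 °C, -0.06 at 48 h and -0.08 at 26 °C for 6 h, against -0.07, 0.03 and -0.08 over all tested genes.

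SLC16-type transporters other than the pair numbered 40 models, of which 24 were tested and none was called. Their median log2 change from control was -0.20 at 30 °C, -0.04 at 48 h and -0.01 at 26 °C for 6 h, and 15 of the 24 were below 0 at 30 °C. Monocarboxylate transporter 13 models had the highest levels at 48 h, where BSL78_08330 averaged 47.5 ± 70.6 FPKM with 129 FPKM in animal 2, against 14.7 ± 11.3 FPKM in controls (log2 0.78, adjusted p = 1 by limma). BSL78_08298, of the same name, averaged 17.9 ± 8.43 FPKM at 30 °C and 17.6 ± 11.1 FPKM in controls (log2 0.06, adjusted p = 0.996). Monocarboxylate transporter 2 models, which in mammals are high-affinity pyruvate and lactate carriers, were also uneven between animals. BSL78_30196 averaged 5.91 ± 7.47 FPKM at 30 °C, 2.21 ± 2.74 FPKM at 48 h, 19.9 ± 28.8 FPKM at 26 °C for 6 h and 22.1 ± 30.8 FPKM in controls. BSL78_11611 averaged 2.73 ± 1.90 FPKM at 30 °C, 2.33 ± 2.11 FPKM at 48 h, 2.06 ± 2.67 FPKM at 26 °C for 6 h and 9.05 ± 5.08 FPKM in controls (log2 -1.46, -1.66 and -1.97, adjusted p = 0.547, 1 and 0.532 by limma).

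Monocarboxylate transporter 4 (BSL78_01451), the carrier that exports lactate from glycolytic cells in mammals, averaged 3.01 ± 0.884 FPKM at 30 °C, 2.47 ± 1.55 FPKM at 48 h, 4.07 ± 3.48 FPKM at 26 °C for 6 h and 3.46 ± 0.812 FPKM in controls. Monocarboxylate transporter 3 (BSL78_12781), a lactate carrier of the retinal epithelium in mammals, had 3.02, 6.21 and 1.23 FPKM at 30 °C, against 0 in all controls. Its log2 change of 2.00 did not pass (adjusted p = 0.147 by limma, 0.0199 to 0.365 over the settings, passing in 3 of 19). The other tested models, named monocarboxylate transporter 2, 3, 4, 10, 12, 13 or 14, averaged at most 12.3 FPKM in any group.

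**Figure D3:**
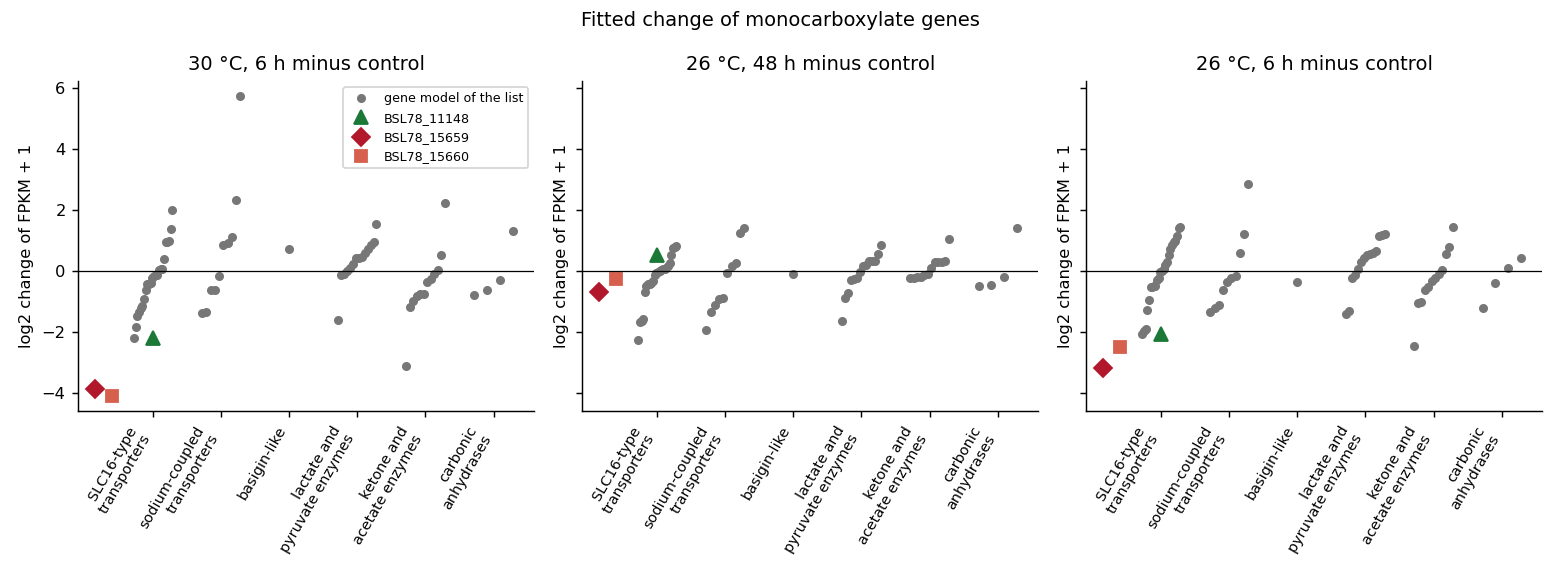
Fitted log2 change of FPKM + 1 against control for the tested monocarboxylate models, by role, at 30 °C for 6 h, 26 °C for 48 h and 26 °C for 6 h. Each point is 1 gene model, ordered by its change within a role, and the pair and the third monocarboxylate transporter 6 model have their own marks. BSL78_15659 lies at -3.86, -0.69 and -3.17, and the other SLC16-type models at 30 °C between -2.21 and 2.00.

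Sodium-coupled monocarboxylate transporters had 31 models and 10 tested, with none called. BSL78_01830, sodium-coupled monocarboxylate transporter 1, was the highest transporter of all at 30 °C, at 360, 0 and 604 FPKM, against 0, 0 and 0.447 FPKM in controls. At 48 h it had 8.05, 0.335 and 1.19 FPKM, and at 26 °C for 6 h 0, 369 and 0.436 FPKM. High values thus occurred in 2 of 3 animals at 30 °C and 1 of 3 at 26 °C for 6 h, and the log2 difference of 5.73 between 30 °C animals and controls missed the threshold (adjusted p = 0.388 by limma, 0.0968 to 0.647 over 20 settings). BSL78_07496 averaged 16.5 ± 15.9 FPKM at 30 °C and 2.44 ± 3.37 FPKM in controls (log2 2.32, adjusted p = 0.313 by limma), and BSL78_25552 averaged 18.9 ± 19.8 FPKM and 7.70 ± 7.82 FPKM in the same groups (log2 1.13, adjusted p = 0.728). Basigin-like BSL78_05765, the one partner model found by name, averaged 14.9 ± 5.22 FPKM at 30 °C, 8.27 ± 4.68 FPKM at 48 h, 6.81 ± 3.44 FPKM at 26 °C for 6 h and 8.68 ± 3.72 FPKM in controls (log2 0.73, -0.11 and -0.35, adjusted p = 0.709, 1 and 0.931 by limma).

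Enzymes that make or use monocarboxylates were measured beside the carriers. Of 14 tested lactate and pyruvate enzymes none was called. Pyruvate dehydrogenase kinase (BSL78_13127), which switches off pyruvate oxidation, averaged 420 ± 203 FPKM at 30 °C, 203 ± 44.3 FPKM at 48 h, 526 ± 343 FPKM at 26 °C for 6 h and 352 ± 145 FPKM in controls. The beta subunit of pyruvate dehydrogenase E1 (BSL78_13226) averaged 116 ± 30.2 FPKM at 30 °C and 84.7 ± 14.5 FPKM in controls (log2 0.42, adjusted p = 0.819 by limma). Lactate dehydrogenase (BSL78_28196), named here after its values were seen, interconverts lactate and pyruvate. It averaged 190 ± 62.4 FPKM at 30 °C, 93.8 ± 22.4 FPKM at 48 h, 74.7 ± 41.5 FPKM at 26 °C for 6 h and 66.2 ± 29.2 FPKM in controls, with a log2 change of 1.54 at 30 °C (adjusted p = 0.367 by limma).

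Of 12 tested ketone body and acetate enzymes none was called. Mitochondrial D-beta-hydroxybutyrate dehydrogenase (BSL78_11673), which interconverts the ketone bodies, had 0, 0.814 and 0 FPKM at 30 °C and 0.928, 27.4 and 12.7 FPKM at 48 h. It had 0, 2.05 and 1.36 FPKM at 26 °C for 6 h, against 10.3, 11.2 and 7.64 FPKM in controls. All animals of both 6 h groups lay below all controls, and the 48 h animals spread over the whole range. In the whole list 4 of the 65 tested members lay below all controls at 30 °C, and 2 at 26 °C for 6 h. Over all tested genes the shares were 7.98% and 7.15%. The log2 change of BSL78_11673 was -3.12 at 30 °C (adjusted p = 0.156 by limma) and -2.46 at 26 °C for 6 h (adjusted p = 0.463), and at 30 °C it passed only without animal 1 of the 48 h group (adjusted p = 0.0373, range over 20 settings 0.0373 to 0.343). Hydroxymethylglutaryl-CoA lyase (BSL78_28771), the enzyme that releases acetoacetate, averaged 1.69 ± 1.12 FPKM at 30 °C, 5.83 ± 3.12 FPKM at 48 h, 1.52 ± 0.926 FPKM at 26 °C for 6 h and 4.74 ± 3.14 FPKM in controls (log2 -0.97, 0.34 and -1.05, adjusted p = 0.647, 1 and 0.728 by limma). Of the 4 carbonic anhydrases, which supply protons and bicarbonate, none was called. BSL78_30160 averaged 29.9 ± 17.8 FPKM at 30 °C and 16.1 ± 13.2 FPKM in controls (log2 1.32, adjusted p = 0.670 by limma), and BSL78_13414 averaged 5.88 ± 5.36 FPKM and 8.15 ± 0.587 FPKM in these groups (log2 -0.77, adjusted p = 0.733).

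The models around the pair on its scaffold were described next, and at 48 h and in controls each tested one had a lower mean than either member. Of the 5 models on each side, 4 had no read in any library: the trace amine-associated receptors BSL78_15655 and BSL78_15656 and the hypothetical proteins BSL78_15657 and BSL78_15658, all on the minus strand. The nearest model with reads before the pair is histidine ammonia-lyase (BSL78_15654), 59111 bases away, and the nearest after it is dedicator of cytokinesis protein 3 (BSL78_15661), 27754 bases away. BSL78_15654 averaged 1.00 ± 1.74 FPKM at 30 °C and 1.82 ± 0.886 FPKM in controls. BSL78_15661 averaged 0 FPKM at 30 °C and 1.15 ± 1.04 FPKM in controls. The second dedicator model (BSL78_15662) averaged 1.10 ± 0.356 FPKM and 3.16 ± 1.77 FPKM, and the hypothetical proteins BSL78_15663 and BSL78_15664 averaged 2.85 ± 1.26 and 2.68 ± 2.69 FPKM at 30 °C, against 6.76 ± 3.75 and 2.72 ± 1.27 FPKM in controls. Centromere protein K (BSL78_15665) had 3 reads in all and was not tested. None of the 5 tested neighbours was called by limma in any comparison, none had an unadjusted p under 0.05, and no difference between them and the pair was tested. Their log2 changes from control ran from -0.96 to -0.32 at 30 °C, from -1.26 to 0.25 at 48 h and from -1.09 to 0.24 at 26 °C for 6 h.

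**Figure D4:**
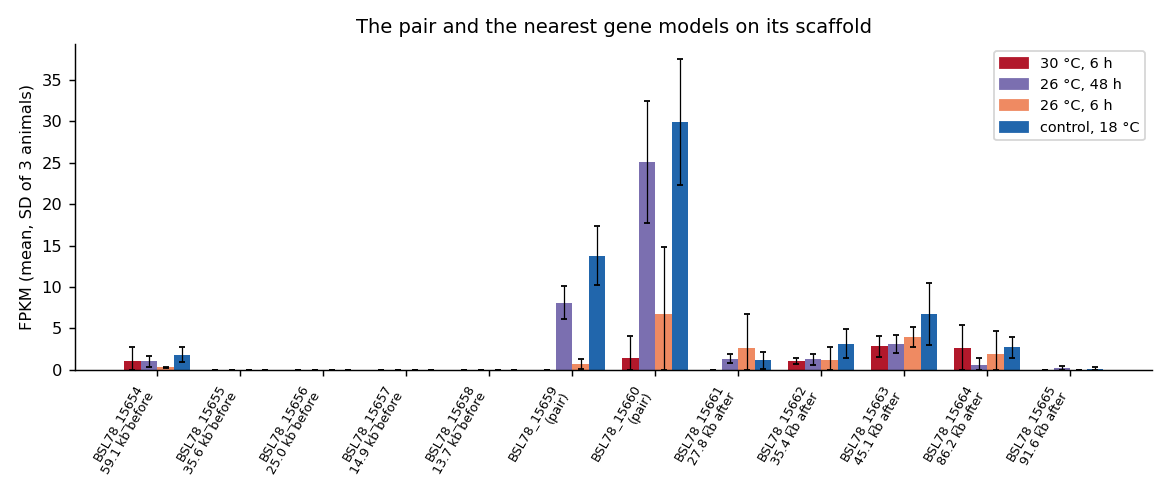
Mean FPKM of the pair and of the 5 nearest gene models on each side, in their order on the scaffold, with the distance of each from the pair in kb. Bars are means of 3 animals and lines their SD, drawn down to 0 at most. The pair reaches 29.9 FPKM in controls, and no neighbour exceeds 6.76 FPKM in any group.

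The likeness of the 2 members was measured across libraries and within groups. Across the 12 libraries the Pearson correlation of their log2(FPKM + 1) was 0.818, a description only, since the pair was proposed for its shared pattern. The deviations from the group means correlated at -0.444, and at 0.235 without animal 1 of the 26 °C 6 h group, the animal whose 14 reads all lay on BSL78_15660. Without it the correlation across libraries was 0.937. Among 1241 tested pairs of adjacent models that share a name, out of 2343 in the file, the median correlation across libraries was 0.382 (quartiles 0.127 and 0.603), and this pair ranked 83rd. The median within groups was 0.366 (quartiles 0.0443 and 0.616), and there the pair ranked 1191st by its -0.444. That rank includes animal 1 of the 26 °C 6 h group, and none is given without it. These points share libraries and depth, and reads of similar models may be divided in the same way in each.

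The model most like BSL78_15659 across the 12 libraries was an ankyrin repeat domain protein 13C-like model (BSL78_00485), with a correlation of 0.981. It averaged 0 FPKM at 30 °C, 4.56 ± 0.677 FPKM at 48 h, 0.430 ± 0.745 FPKM at 26 °C for 6 h and 7.85 ± 1.94 FPKM in controls. Next came a Ty3-I Gag-Pol polyprotein of a transposon (BSL78_00819, 0.953), a mitochondrial enolase superfamily member (BSL78_05863, 0.945), the ribonuclease P subunit p38 (BSL78_14508, 0.940) and the hypothetical protein BSL78_01229 (0.930). In all, 11 of 18728 genes correlated with BSL78_15659 above 0.9. BSL78_11148 was the 13th most like it (0.888), and BSL78_15660 the 66th. Of the 5, all but BSL78_05863 were at 0 in every 30 °C animal, and BSL78_05863 averaged 1.81 ± 0.651 FPKM there and 8.001 ± 2.76 FPKM in controls. Those at 0 had few reads even in controls: 6, 14 and 24 for BSL78_00485 and 9, 11 and 11 for BSL78_00819. BSL78_14508 had 8, 10 and 18 there and BSL78_01229 had 2, 5 and 11. The part of such low counts in the correlations was not tested.

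For BSL78_15660, only 3 genes correlated above 0.9. The most alike was integrator complex subunit 5-like (BSL78_04798, 0.938), part of the complex that processes small nuclear RNA, at 6.11 ± 2.49 FPKM at 30 °C, 13.2 ± 3.45 FPKM at 48 h, 8.30 ± 3.82 FPKM at 26 °C for 6 h and 15.0 ± 2.97 FPKM in controls. NEFA-interacting nuclear protein NIP30 (BSL78_17444, 0.927), the hypothetical proteins BSL78_05327 (0.909) and BSL78_28945 (0.887) and a model described as 3-oxoacyl (BSL78_16037, 0.887) followed. BSL78_15659 was the 32nd most like it and BSL78_11148 the 81st (0.770). No gene was among the 5 most alike of both members.

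**Figure D5:**
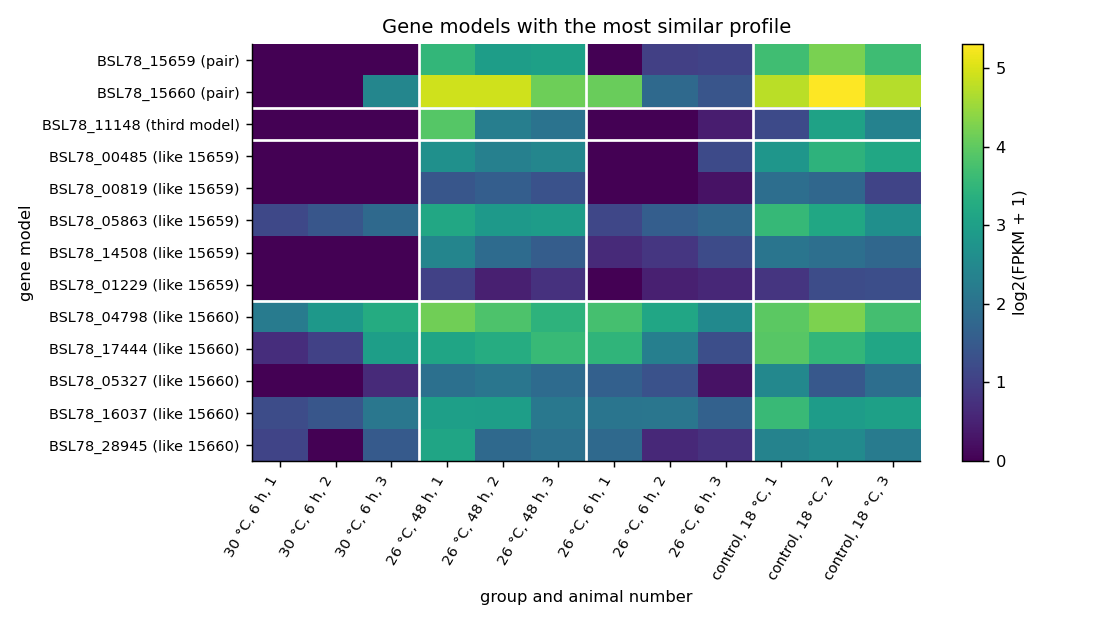
Level of the pair, of the third monocarboxylate transporter 6 model and of the 5 gene models most like each member, as log2(FPKM + 1) by colour, in each animal. The models were chosen for this likeness over the same 12 libraries. The rows like BSL78_15659 are dark in the 30 °C animals except for BSL78_05863, and of those like BSL78_15660, 3 have signal in every 30 °C animal while BSL78_05327 and BSL78_28945 are at 0 in some.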

How the data were processed

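Values were deposited as FPKM for 30221 gene models, each with its scaffold position, strand, description and length, per the file headers. Each animal gave its own Trizol RNA, and random-primed mRNA libraries were run on an Illumina HiSeq, per the labels' protocols. Aligner, counting tool, strand setting and genome build are not given in the sources used here. Names and positions are the file's, because 0 identifiers were found in the reference gene table. Lengths are multiples of 3 for 94.04% of models and are called coding lengths, 4528 models had 0 in every library, and 0 value columns belonged to other samples.

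Every FPKM multiplied by length was a whole multiple of 1 step per library (100% of values within 0.05 of a read), so whole reads were recovered. The authors' scaling equalled median-of-ratios factors in every library. Groups and animal numbers came from the labels. On log2(FPKM + 1), limma 3.58.1 under R 4.3.3 was fitted to the 18729 genes that averaged 0.5 FPKM or more across the 12 libraries, with 1 mean per group and 8 residual and 5.652 prior degrees of freedom. Tests were two-sided, and p-values were adjusted over all tested genes by Benjamini-Hochberg, with a threshold of 0.05 and 5 comparisons. The comparisons with control share the same control animals. The fit was checked on simulated data. Poisson, binomial and read-ratio intervals are exact at 95%. Figures and summaries were made with Python 3.11.15.

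The members and the gene lists were chosen with earlier results of these data known. Lists were matched by words in the descriptions. Named genes were the members, the measured transporters and partners, the 2 models with the highest control mean in each enzyme group where none was called, 5 scaffold neighbours on each side and the 5 most alike genes per member; transporters at low levels are given by their range. Alternatives were another pseudocount, other filters, another scaling, voom on the reads, a fit of only the groups compared, a replicate block and leaving out each animal. The depth was 1788303 to 3956056 reads on genes per library.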

Additional observations from a re-analysis of the deposited data

How the results depend on the processing

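The fitted log2 differences of the pair depended on how values near 0 were handled, since the 30 °C and 26 °C 6 h libraries held 0 to 14 reads of a member. With a pseudocount of 0.1 FPKM, BSL78_15659 differed from control by -7.09 at 30 °C and -4.73 at 26 °C for 6 h, by -2.35 between 30 °C and 26 °C at 6 h and by 3.98 between 48 h and 6 h at 26 °C. With the same pseudocount BSL78_15660 differed by -6.37 at 30 °C and -3.56 between the temperatures, and the summed pair by -6.24 and -3.16. With voom on the recovered reads the values of BSL78_15659 were -5.80, -4.30, -1.499 and 3.50 in the same order, and those of the summed pair -5.74 at 30 °C, -3.18 at 26 °C for 6 h and -2.56 between the temperatures. With every library rescaled to a common sum of FPKM, BSL78_15659 differed from control by -4.37 at 30 °C and by 2.98 between 48 h and 6 h at 26 °C, and the summed pair by -4.54 at 30 °C. None of these settings turned the sign of a difference, but BSL78_15660 at 48 h came to 0.00017 without animal 3 of the 48 h group. Leaving out each animal in turn, BSL78_15659 ran from -3.96 to -3.67 at 30 °C, -0.87 to -0.50 at 48 h, -3.36 to -2.82 at 26 °C for 6 h, -1.04 to -0.50 between the temperatures and 2.13 to 2.67 between the times. BSL78_15660 ran from -4.92 to -3.70, -0.39 to 0.00017, -3.31 to -1.97, -2.44 to -0.79 and 1.71 to 3.05 in the same order, and the summed pair from -4.25 to -3.66, -0.62 to -0.28, -3.02 to -2.36, -1.65 to -0.84 and 1.90 to 2.55. The share of BSL78_15660 ran from 50% to 60.1% at 48 h, 42.9% to 85% at 26 °C for 6 h and 46.4% to 46.6% in controls, and taken from FPKM it was 75.5% at 48 h and 68.5% in controls, higher by construction because the model is shorter. The correlation of the members ran from 0.792 to 0.937 and that of their deviations from -0.600 to 0.235, positive only without animal 1 of the 26 °C 6 h group (Spearman -0.339 with all animals). The monocarboxylate list had 2 calls at 30 °C with the pseudocount of 0.1 FPKM and with voom (BSL78_11148 and BSL78_12781), 0 to 1 without single animals (BSL78_12781 without animal 3 of the 30 °C group, BSL78_11673 without animal 1 of the 48 h group), and 0 otherwise.

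The counts over all genes, used as background, were less stable. At 30 °C against control 122 genes were called, 59 with a common sum, 45 with only the groups compared and 52 to 258 without single animals. The 258 calls, like the 37 and 159 below, were made without animal 3 of the 30 °C group, and the 52 without its animal 1. The main calls split into 110 higher and 12 lower, against 36 and 23 with the common sum and 86 and 28 with a pseudocount of 0.1 FPKM. At 26 °C for 6 h 12 were called, 7 without a filter, 25 among genes averaging 5 FPKM or more, 6 with a common sum, 19 with voom and 4 to 37 without single animals. At 48 h 0 were called (852 at an unadjusted p under 0.05), 1 with a common sum and 0 to 1 without single animals. Between the temperatures 46 were called, 23 without a filter, 1 with a common sum, 8 with voom, 1 with only the groups compared and 1 to 159 without single animals, and between the times 2, 4 with the pseudocount of 0.1 FPKM, 1 with only the groups compared and 1 to 4 without single animals. The animals share only a number: of 18 same-numbered pairs 1 had deviations correlating above 0.1 (range -0.206 to 0.170), and 5 of 12 libraries correlated best with their own number. A replicate block could not move the fitted differences of the members, because each group holds animals 1, 2 and 3. Only the SE could change, from 0.503 to 0.538 for BSL78_15659 and from 0.793 to 0.845 for BSL78_15660. The block fit called 3 genes at 26 °C for 6 h, 1 at 48 h, 93 at 30 °C, 17 between the temperatures and 1 between the times. Few reads limit the values: 1 read of BSL78_15660 is worth 1.48 FPKM in animal 3 of the 30 °C group and 0.282 FPKM in control animal 3, after the authors' scaling.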
